A study of Capra hircus with 6 samples.

Results

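The cell cycle and DNA replication genes described here are 32 genes, chosen by symbol, out of the 24779 genes counted in peripheral blood mononuclear cells of goat kids (Capra hircus). All 32 are in the count table. Of these, 11 act in S phase, when DNA is copied, and are called S phase members: E2F1, MCM2, MCM3, MCM4, MCM5, MCM6, MCM7, PCNA, TYMS, RRM2 and TK1. The other 21 act in G2 and mitosis and are called mitotic members: FOXM1, CCNA2, CCNB1, CCNB2, CDK1, PLK1, AURKA, AURKB, BIRC5, BUB1, BUB1B, CDC20, UBE2C, TOP2A, MKI67, NUSAP1, TPX2, KIF11, KIF20A, CENPF and ASPM. The replacer-milk group was 3 libraries of kids fed replacer milk, and the doe-milk group was 3 libraries of kids fed doe milk, each from total RNA of mononuclear cells. The labels call the libraries biological replicates and give no age, breed, sex or further treatment, and the stated question is which genes were expressed differently under these feeds.

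Most blood lymphocytes and monocytes rest outside the cell cycle, so transcripts of these genes in blood usually come from a small dividing fraction, such as activated T and B cells, plasmablasts and circulating progenitors. In dividing cells the transcription factor E2F1 and its relatives switch on the S phase genes, and FOXM1, together with the DREAM and MYB-MuvB complexes, governs the later mitotic genes. These roles are known mainly from human, mouse and yeast cells. In bulk RNA, fewer dividing cells and less RNA per dividing cell cannot be told apart.

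The 6 libraries were of 2 kinds that crossed the feeds, which decides where these genes can be compared. In replacer-milk library 1 and doe-milk libraries 1 and 2, called transcript-like, the Spearman correlation of counts with the genomic span of the genes was 0.376, 0.37 and 0.383. It was 0.895 and 0.896 in replacer-milk libraries 2 and 3 and 0.892 in doe-milk library 3, called span-following. Total counts ran from 25023210 to 57204363 per library. In the transcript-like libraries the markers of T cells and B cells were present, as the label of mononuclear cells has it, with CD3E at 490 CPM in replacer-milk library 1 and 479 and 405 CPM in doe-milk libraries 1 and 2, and MS4A1 at 465 CPM against 445 and 465 CPM. CPM are counts scaled to the library total.

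**Figure D1:**
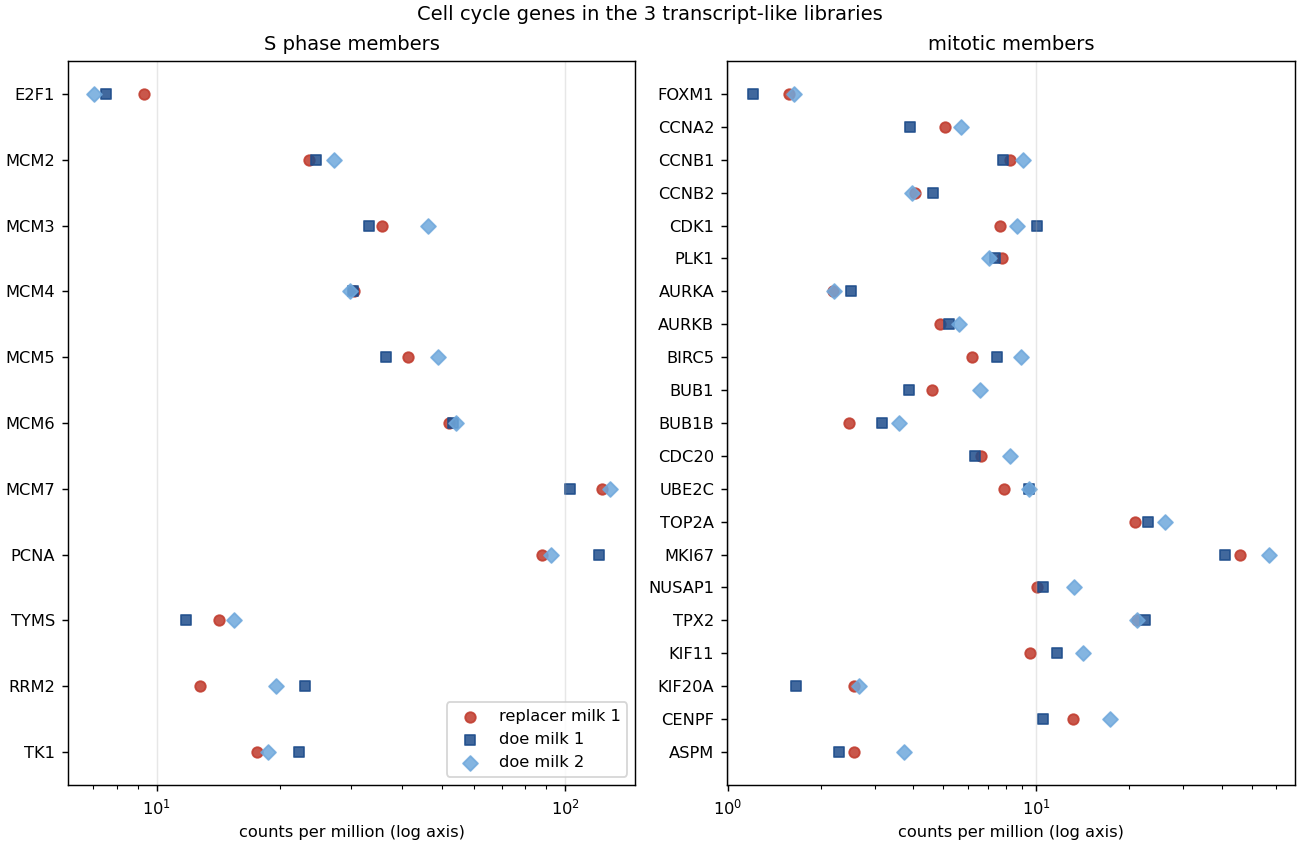
CPM (log axis) of the 11 S phase members (left) and the 21 mitotic members (right) in replacer-milk library 1 (circles), doe-milk library 1 (squares) and doe-milk library 2 (diamonds). For RRM2, replacer-milk library 1 lay at 12.8 CPM, apart from 23.1 and 19.6 CPM in the doe-milk libraries, while for most genes the 3 points lie close together.

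All members were detected in every transcript-like library. Their counts ran from 82 to 6384 in replacer-milk library 1, from 58 to 5817 in doe-milk library 1 and from 94 to 7355 in doe-milk library 2. The smallest count in each was that of FOXM1. The summed level of the S phase members was 448 CPM in replacer-milk library 1, against 466 and 488 CPM in doe-milk libraries 1 and 2. That of the mitotic members was 195 CPM against 196 and 236 CPM. Neither sum set replacer-milk library 1 apart by more than the doe-milk libraries differed from each other. Levels were not ranked between genes, because no transcript lengths were at hand.

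The main comparison set replacer-milk library 1 against doe-milk libraries 1 and 2. No member passed edgeR's quasi-likelihood test at an adjusted p of 0.05: 0 of 32 were called, where 0.0173% of the 17356 genes tested were, 0.0115% lower and 0.00576% higher in replacer milk. The smallest adjusted p among the members was 0.738. At an unadjusted p below 0.05 there was 1 member, against 5.35% of all genes. The members called by DESeq2 and limma voom are given further below, beside all genes called. The replacer-milk side is 1 library, assumed to vary like the doe-milk libraries, so that these p-values rest on the spread between the doe-milk libraries. On data simulated for this comparison the fit recovered 35% of planted 2-fold changes, so the lack of calls says little about differences of that size.

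Most estimates were negative all the same, and small. Of the 32 members, 29 had a negative log2 fold change (replacer milk minus doe milk), where 50.6% of all genes tested did. The median log2 fold change was −0.16 for the S phase members and −0.25 for the mitotic members, against −0.0057 for all genes tested. After TMM scaling, which sets libraries to a common level by a trimmed mean over genes, 19 of 32 members lay below both doe-milk libraries, against 33.2% of all genes. Only E2F1 lay above both, against 34.4% of all genes. The 19 were 6 of the 11 S phase members and 13 of the 21 mitotic members. Scaled by library totals alone, which moves the median of all genes to 0.105, 14 members lay below both and 3 above both, against 23.8% and 46.9% of all genes, and 24 of 32 log2 fold changes were negative. The genes share the same library, so these counts carry no test. Of the members, 4 had a log2 fold change below −0.5 and 0 had one above 0.5, where 15.6% of all genes were below −0.5.

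**Figure D2:**
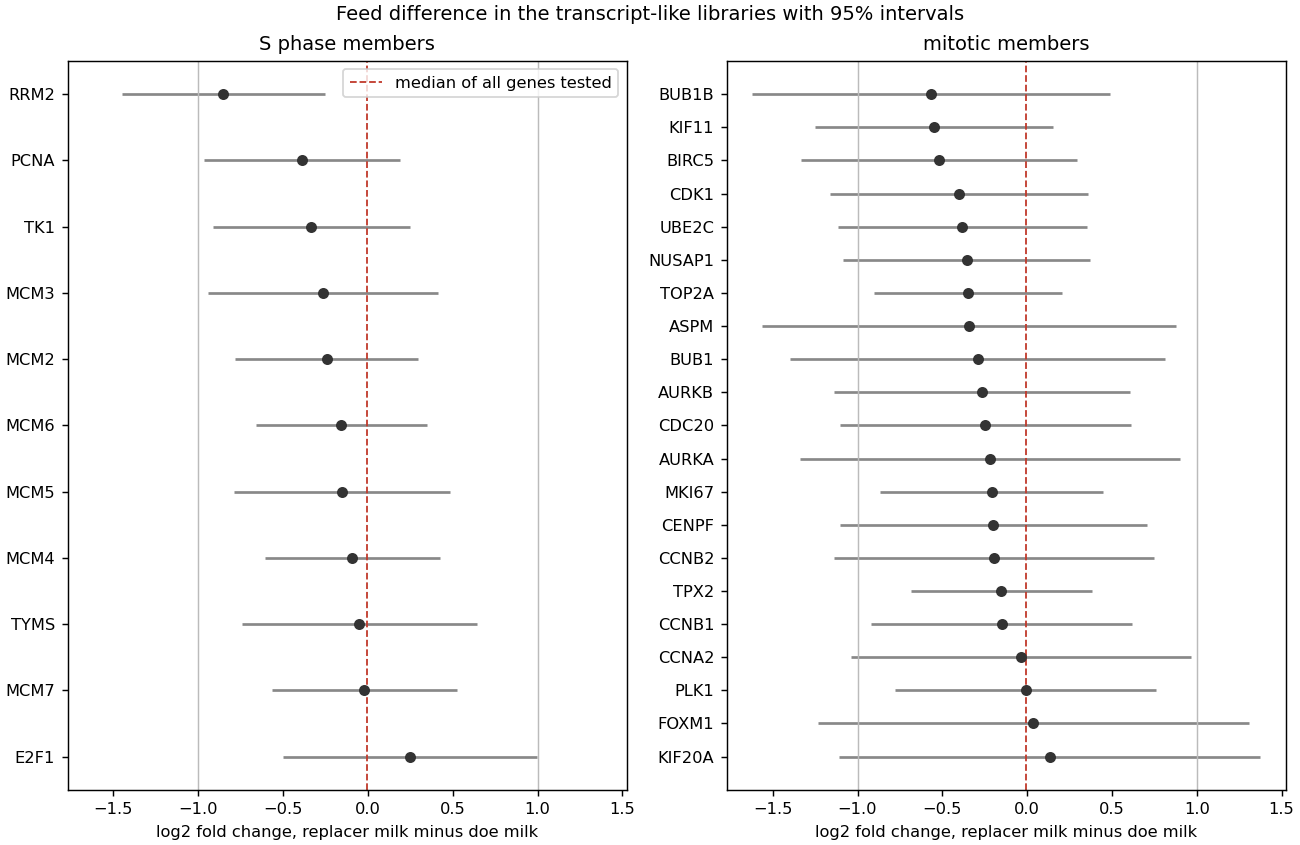
Log2 fold change of each member, replacer-milk library 1 minus doe-milk libraries 1 and 2, with its 95% interval from the edgeR fit (S phase members left, mitotic members right). The dashed line is the median of all genes tested and the grey lines mark a 2-fold difference. RRM2 has the only interval that leaves out 0.

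RRM2, the small subunit of ribonucleotide reductase, which makes the deoxynucleotides for DNA synthesis, had the smallest p of the members. It stood at 12.8 CPM (662 counts, exact 95% Poisson interval 11.8 to 13.8 CPM) in replacer-milk library 1, against 23.1 CPM (21.8 to 24.5) and 19.6 CPM (18.4 to 20.7) in doe-milk libraries 1 and 2. The counting intervals, which cover counting error only, did not overlap between the feeds. Those of doe-milk libraries 1 and 2 did not overlap each other either, so this does not set the feeds apart. The log2 fold change was −0.85 (SE 0.24, 95% interval −1.45 to −0.26, unadjusted p = 0.0128, edgeR adjusted p = 0.738), a value that did not pass over all genes. The other subunit, RRM1, had a log2 fold change of −0.14 (SE 0.21).

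Enzymes of thymidine supply differed less. TK1, the thymidine kinase of the salvage pathway, stood at 17.6 CPM in replacer-milk library 1, against 22.3 and 18.8 CPM in the doe-milk libraries, with a log2 fold change of −0.34 (SE 0.24, 95% interval −0.92 to 0.25). TYMS, the thymidylate synthase, stood at 14.2 CPM, between 11.8 and 15.5 CPM in the doe-milk libraries. The feeds overlapped for TYMS and not for TK1, and neither interval reached a 2-fold difference.

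PCNA, the sliding clamp of the replication fork, stood at 87.8 CPM in replacer-milk library 1, against 121 and 92.2 CPM in doe-milk libraries 1 and 2. Its log2 fold change was −0.39 (SE 0.24, 95% interval −0.97 to 0.19, edgeR adjusted p = 0.979). Replacer-milk library 1 was the lowest, but doe-milk library 2 lay nearer to it than to doe-milk library 1.

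The 6 MCM genes encode the ring-shaped helicase that opens the DNA at replication origins, and their log2 fold changes ran from −0.26 for MCM3 to −0.023 for MCM7. MCM3 stood at 35.7 CPM in replacer-milk library 1, against 33.0 and 46.2 CPM in the doe-milk libraries. MCM7 stood at 123 CPM, against 103 and 129 CPM. In both genes, and in MCM5, replacer-milk library 1 lay between the doe-milk libraries. MCM4 stood at 30.4 CPM against 30.3 and 29.8 CPM, so that it was marginally the highest in CPM and the lowest after TMM scaling. All 6 had 95% intervals within a 2-fold difference either way.

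E2F1, the activator of S phase genes, went the other way, at 9.33 CPM in replacer-milk library 1 against 7.53 and 7.01 CPM in doe-milk libraries 1 and 2. Its log2 fold change was 0.25 (SE 0.31, 95% interval −0.50 to 0.996, edgeR adjusted p = 0.979). It lay above both doe-milk libraries by less than its error. For 10 of the 11 S phase members, E2F1 included, the interval left out a 2-fold difference in both directions, which it did for 45.9% of all genes. The exception was RRM2.

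Among the mitotic members, the largest estimates were those of a checkpoint kinase, a spindle motor and a subunit of the chromosomal passenger complex. BUB1B, which holds back anaphase until all chromosomes are attached, stood at 2.47 CPM in replacer-milk library 1, against 3.16 and 3.60 CPM in doe-milk libraries 1 and 2 (log2 fold change −0.57, SE 0.43). KIF11, the motor that pushes spindle poles apart, stood at 9.54 CPM, against 11.7 and 14.2 CPM (−0.55, SE 0.29). BIRC5, survivin, stood at 6.20 CPM, against 7.49 and 8.95 CPM (−0.52, SE 0.33). Replacer-milk library 1 was the lowest for all 3 genes, and each had an edgeR adjusted p of 0.979.

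The kinases that drive mitosis and their partners did not pass the test. CDK1, the kinase that starts mitosis, stood at 7.65 CPM in replacer-milk library 1, against 10.1 and 8.65 CPM in the doe-milk libraries (log2 fold change −0.40, SE 0.31). Its partner CCNA2, cyclin A, stood at 5.07 CPM, between 3.89 and 5.72 CPM (−0.036, SE 0.41). PLK1, a kinase of spindle assembly, stood at 7.73 CPM, against 7.34 and 7.04 CPM (−0.0079, SE 0.32), marginally the highest in CPM. The cyclin B genes CCNB1 and CCNB2 had −0.15 and −0.20, and the aurora kinases AURKA and AURKB −0.22 and −0.27.

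The usual markers of dividing cells did not pass either. MKI67, the Ki-67 protein of the chromosome surface, stood at 45.7 CPM in replacer-milk library 1, between 41.0 and 56.8 CPM in doe-milk libraries 1 and 2 (log2 fold change −0.21, SE 0.27). TOP2A, the topoisomerase that untangles copied chromosomes, was the lowest at 20.9 CPM, against 23.1 and 26.1 CPM (−0.35, SE 0.23). FOXM1 stood at 1.58 CPM, between 1.21 and 1.64 CPM (0.035, SE 0.52), and KIF20A, a motor of cell division, at 2.56 CPM, between 1.66 and 2.66 CPM (0.13, SE 0.51). These 2 low genes had the only positive mitotic estimates.

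The other mitotic members had log2 fold changes from −0.38 to −0.15. They were the anaphase genes UBE2C at −0.38 and CDC20 at −0.25, the spindle proteins NUSAP1 at −0.36, ASPM at −0.34 and TPX2 at −0.15, the checkpoint kinase BUB1 at −0.29 and the kinetochore protein CENPF at −0.20. For 5 of the 21 mitotic members the 95% interval left out a 2-fold difference in both directions, so for most of this group a 2-fold difference was not excluded by these libraries. The median standard error was 0.35 for the mitotic members and 0.24 for the S phase members.

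**Figure D3:**
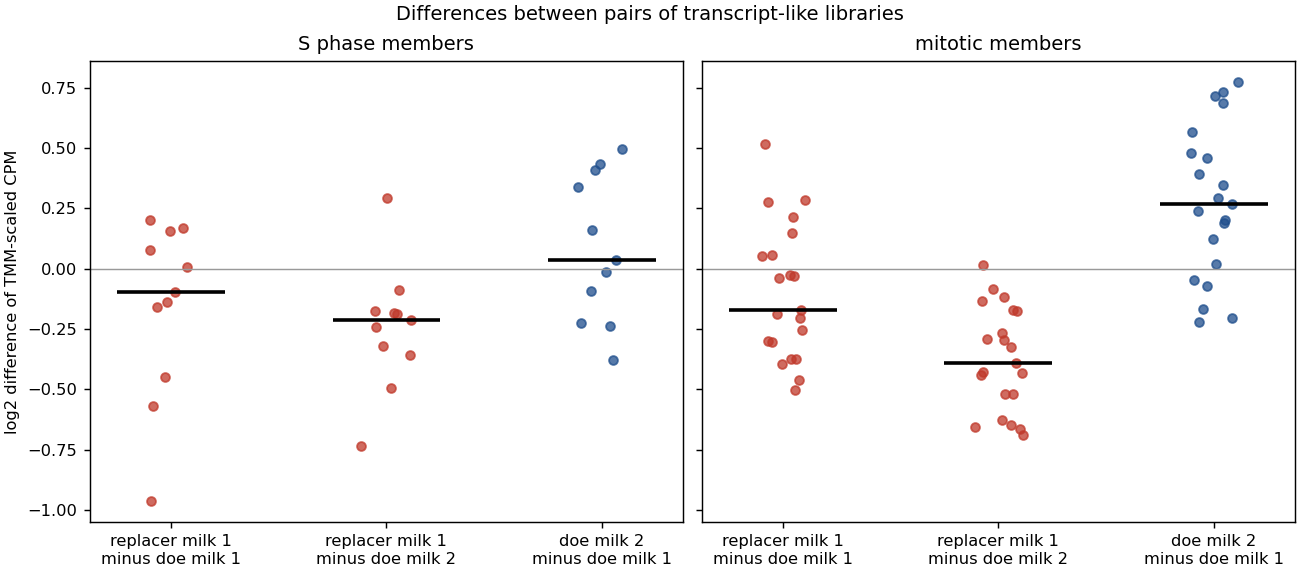
Log2 difference of TMM-scaled CPM of each member between pairs of transcript-like libraries: replacer-milk library 1 minus each doe-milk library, and doe-milk library 2 minus doe-milk library 1 (bars are medians). For the mitotic members the median is 0.27 between the doe-milk libraries, and −0.17 and −0.39 for replacer-milk library 1 minus doe-milk libraries 1 and 2.

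The doe-milk libraries differed from each other in these genes. Doe-milk library 2 lay above doe-milk library 1 for 16 of the 21 mitotic members, by a median log2 difference of 0.27, and for 6 of the 11 S phase members, by a median of 0.038. The median over all genes tested was −0.00023, and 49.96% of them were higher. The estimates of the feed differed with the doe-milk library used. Set against doe-milk library 2, replacer-milk library 1 was lower for 20 of the 21 mitotic members (median −0.39) and for 10 of the 11 S phase members (median −0.21). Set against doe-milk library 1, it was lower for 14 of the 21 mitotic members (median −0.17) and 6 of the 11 S phase members (median −0.098). The differences of single members between the doe-milk libraries ran up to 0.77 on the log2 scale.

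Genes of the same processes that are not among the 32 were measured as well, and 0 of them passed the test, where 0.0173% of all genes did. Of 38 other replication genes, 23 had negative log2 fold changes (median −0.067), and 16 lay below and 5 above both doe-milk libraries after TMM scaling. Of 48 other mitotic genes, 35 were negative (median −0.25), and 29 lay below and 11 above both. Of all genes tested, 50.6% were negative, 33.2% lay below both and 34.4% above both. NDC80, a kinetochore protein that grips microtubules, had the smallest p of the mitotic ones, at 3.30 CPM in replacer-milk library 1 against 5.22 and 6.42 CPM (log2 fold change −0.93, SE 0.39, edgeR adjusted p = 0.945). NUF2, its partner in the same complex, stood at 7.79 CPM against 10.7 and 10.3 CPM, and MAD2L1, a checkpoint protein, at 10.8 CPM against 17.4 and 11.6 CPM. PTTG1, securin, stood at 6.42 CPM against 8.80 and 8.39 CPM. All 4 were lowest in replacer-milk library 1, but were named for the smallest p-values of their list, which favours genes outside both doe-milk libraries.

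Of the other replication genes, RPA3, a subunit of the single-strand binding protein, stood at 25.9 CPM in replacer-milk library 1 against 34.5 and 33.4 CPM in doe-milk libraries 1 and 2 (log2 fold change −0.50, SE 0.22, edgeR adjusted p = 0.948). DTL, an adaptor of the ligase that degrades replication factors, stood at 1.54 CPM against 3.45 and 2.29 CPM. CDC6, which loads the MCM helicase, stood at 1.97 CPM against 3.12 and 3.01 CPM, and RFC3, a subunit of the clamp loader, at 12.4 CPM against 17.9 and 14.0 CPM. These 4 were lowest in replacer-milk library 1. They were named for the smallest p-values of their list, a choice that favours genes outside both doe-milk libraries.

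The brakes of the cycle were measured beside its engines. After TMM scaling, all 6 CDK inhibitors tested lay below both doe-milk libraries (median log2 fold change −0.24), where 33.2% of all genes did. In CPM 4 of the 6 did, against 23.8% of all genes, and CDKN1B and CDKN1C lay between the doe-milk libraries. CDKN2B was below by a narrow margin, at 1.73 CPM against 1.87 and 1.75 CPM. CDKN2D, which blocks CDK4 and CDK6, stood at 137 CPM in replacer-milk library 1, against 219 and 179 CPM (−0.65, SE 0.22, unadjusted p = 0.0235, edgeR adjusted p = 0.820). CDKN1A, the p53 target p21, stood at 49.9 CPM against 86.5 and 52.0 CPM, and CDKN1B, p27, at 171 CPM against 161 and 190 CPM. None of the 6 passed. BTG2, an antiproliferative gene of resting lymphocytes, stood at 199 CPM against 316 and 225 CPM (−0.55, SE 0.26, edgeR adjusted p = 0.9746), while the median of the 9 genes of resting lymphocytes was −0.0067.

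Genes that control the entry into S phase and the complexes that repress or activate the members showed no common direction. Of 21 G1 to S control genes, 14 were negative (median −0.11), with 9 below and 6 above both doe-milk libraries after TMM scaling, where 50.6% of all genes were negative, 33.2% below and 34.4% above. CCNE2, a cyclin E, stood at 2.89 CPM against 5.16 and 3.58 CPM (log2 fold change −0.71, SE 0.44), and TFDP2, a partner of the E2F factors, at 55.2 CPM against 40.6 and 40.2 CPM (0.34, SE 0.21). Of 6 genes of the DREAM and MYB-MuvB complexes, 2 were negative (median 0.10), and MYBL2, which activates mitotic genes, stood at 18.0 CPM against 12.1 and 16.6 CPM. None of these passed.

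**Figure D4:**
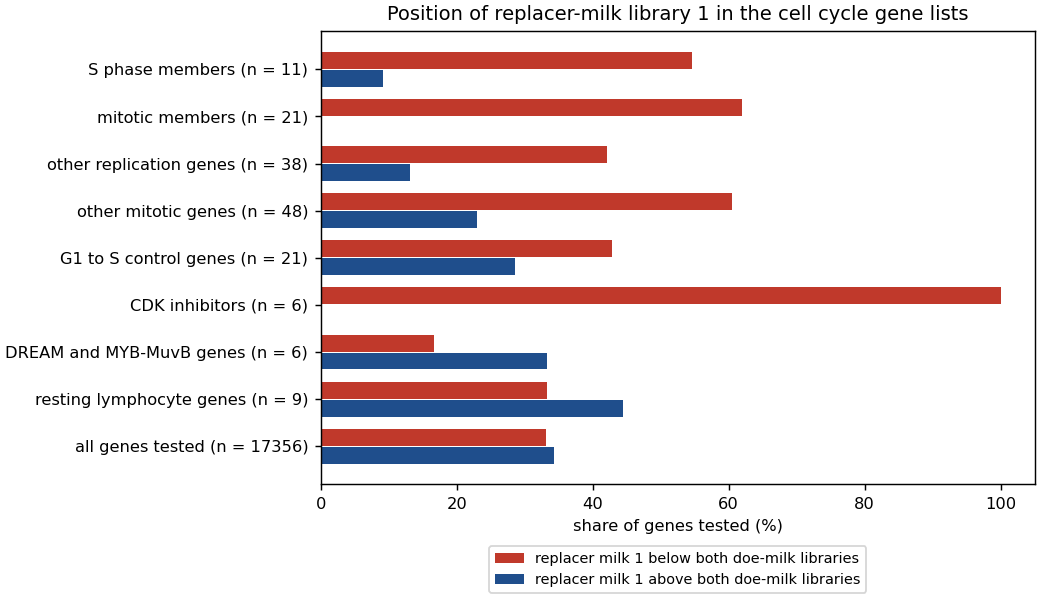
Share of the genes tested in each list for which replacer-milk library 1 lay below (upper bar) or above (lower bar) both doe-milk libraries after TMM scaling. The mitotic members stand at 61.9% below and 0% above, against 33.2% and 34.4% for all genes tested.

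Markers of cell types were measured beside these genes. No marker tested passed, and their part in the estimates above was not tested. The 9 plasma cell and plasmablast markers summed to 1014 CPM in replacer-milk library 1, against 1754 and 1294 CPM in doe-milk libraries 1 and 2. JCHAIN made up the larger part of each sum, at 535 CPM against 1201 and 777 CPM. Of the 9 markers, 7 had negative log2 fold changes (median −0.41) and 2, IRF4 and DERL3, positive ones, and none was at 0 CPM. The 8 erythroid markers in the table summed to 631 CPM in replacer-milk library 1 against 1637 and 1813 CPM (median log2 fold change −0.17 over the 5 tested), and 5 of the 8 were under 1 CPM in each transcript-like library. Nearly all of this sum was HBBC, a beta globin, at 607 CPM against 1619 and 1794 CPM, while ALAS2, an enzyme of haem synthesis, stood at 9.62 CPM against 1.93 and 5.12 CPM. The 5 progenitor markers summed to 30.5 CPM, between 94.9 and 25.6 CPM in the doe-milk libraries, with 3 positive and 2 negative log2 fold changes (median 0.43). GATA2 made up most of these sums, at 20.3 CPM against 87.2 and 19.2 CPM, and CD34, the defining marker, stood at 0.674 CPM against 0.187 and 0.262 CPM. The T cell markers had a median log2 fold change of 0.11, the B cell markers of 0.019, and the monocyte markers of 0.15. The neutrophil markers summed to 319 CPM in replacer-milk library 1 against 742 and 443 CPM (median −0.78), the platelet markers to 645 CPM against 520 and 784 CPM (median −0.54), and the NK cell markers to 130 CPM against 100.1 and 163 CPM (median −0.081).

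In the span-following libraries the members' counts followed the length of the gene. Over the 32 members, the Spearman correlation of CPM with genomic span was 0.719 and 0.727 in replacer-milk libraries 2 and 3 and 0.775 in doe-milk library 3. It was 0.0627 in replacer-milk library 1 and 0.0453 and 0.0634 in doe-milk libraries 1 and 2. In replacer-milk libraries 2 and 3 and doe-milk library 3, the correlation was 0.418, 0.464 and 0.736 for the S phase members. For the mitotic members it was 0.801, 0.812 and 0.862. These are descriptions across genes that share a library. Per kb of genomic span, relative to the median autosomal protein-coding gene of at least 10 kb, the S phase members had a median of 7.92 in replacer-milk library 1 and of 10.1 and 12.01 in doe-milk libraries 1 and 2. In the span-following libraries it was 1.21 and 1.11 in replacer milk and 1.60 in doe milk, near the median gene.

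**Figure D5:**
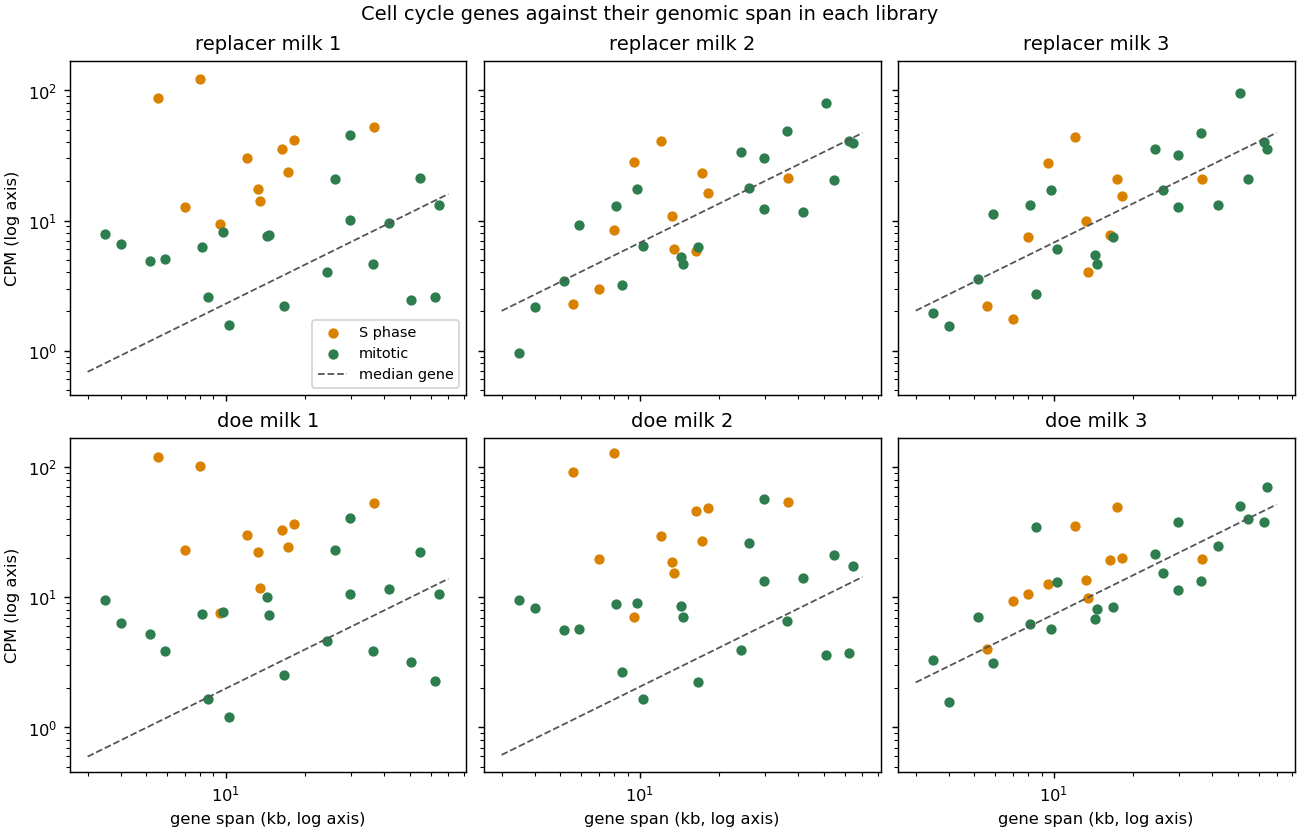
CPM of each member (log axis) against its genomic span in kb (log axis) in each of the 6 libraries, S phase members in orange and mitotic members in green. The dashed line is the level of the median gene per kb of span; in replacer-milk libraries 2 and 3 and doe-milk library 3 the members gather along it, and in the others the S phase members lie above it.

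A short and a long gene show how the kinds of library differ. PCNA, with a span of 5.57 kb, stood at 2.29 and 2.21 CPM in replacer-milk libraries 2 and 3 and at 4.04 CPM in doe-milk library 3, far below its transcript-like values. ASPM, a spindle pole protein with a span of 62.5 kb, stood at 41.2 and 40.4 CPM in replacer-milk libraries 2 and 3 and at 38.0 CPM in doe-milk library 3, against 2.56 CPM in replacer-milk library 1 and 2.29 and 3.72 CPM in doe-milk libraries 1 and 2. BUB1B, with a span of 50.7 kb, stood at 80.7, 94.8 and 50.8 CPM in the same span-following libraries. Of the S phase members, 8 were lower in every span-following library than in every transcript-like one and 2 were higher. Of the mitotic members, 5 were lower and 8 higher. The share of all genes that lay apart between the kinds was not counted. These counts therefore do not show anything particular to the members.

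Within the span-following libraries, replacer-milk libraries 2 and 3 were set against doe-milk library 3. Of the 32 members, 24 passed edgeR's quasi-likelihood test, 12 higher and 12 lower, where 73.2% of the 22232 genes tested passed, 36.7% higher and 36.5% lower. The members' share was near that of all genes. Replacer-milk libraries 2 and 3 were close to each other: their chi-square over genes, divided by its degrees of freedom, was 2.78, against 354 and 359 for each of them with doe-milk library 3. The test therefore sets 2 much alike libraries against 1 other. The largest difference was that of KIF20A, at 3.17 and 2.74 CPM in replacer-milk libraries 2 and 3 against 34.5 CPM in doe-milk library 3 (log2 fold change −3.30, SE 0.16). BUB1, at 48.4 and 47.2 CPM against 13.3 CPM, had 2.08 (SE 0.10), CCNA2 1.95 (SE 0.22) and CCNB1 1.82 (SE 0.17).

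Over all 6 libraries, the comparison the labels state, no member passed. edgeR's quasi-likelihood test called 0 of 32 members and 0.0% of 21431 genes, the smallest adjusted p was 0.987, and 0 members had an unadjusted p below 0.05, against 0.574% of all genes. DESeq2 and limma voom called 0 members, where they called 1 and 0 of the 21431 genes. This count of 0 says nothing about whether the members differed: on data simulated for this design the fit did not recover the planted changes. In the deposited data, the 95% interval left out a 2-fold difference in both directions for 0 of 32 members and 0.0% of all genes. Of the 32 members, 24 had negative log2 fold changes, where 51.6% of all genes did. The medians were −0.82 for the S phase members and −0.46 for the mitotic members. With the kind of library as a term they were −0.27 and −0.16.

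The libraries of each feed spread widely where the kinds differ. MKI67 averaged 36.01 ± 8.43 CPM in replacer milk and 45.2 ± 10.1 CPM in doe milk (SD, n = 3 each). RRM2 averaged 5.83 ± 6.03 CPM in replacer milk and 17.4 ± 7.09 CPM in doe milk, and PCNA 30.8 ± 49.4 CPM in replacer milk and 72.4 ± 61.0 CPM in doe milk. RRM2, named here for its small p in the main comparison, was lower in replacer milk within each kind. Its transcript-like levels are given above. In the span-following libraries it had 2.99 and 1.76 CPM in replacer milk, while doe milk had 9.43 CPM, an estimate of −1.75 on the log2 scale. After TMM scaling, MCM2, PCNA, TK1, CDK1, AURKB, UBE2C, TPX2 and KIF11 also lay below every doe-milk library of each kind. E2F1 lay above in each kind. MCM4, MCM6, CCNB1, CCNB2, BIRC5, BUB1B, CDC20, TOP2A and NUSAP1 were below in the transcript-like libraries and above in the span-following ones. Of all genes tested, 33.2% lay below and 34.4% above in the transcript-like libraries. In the span-following libraries 48.3% lay below and 46.3% above. The share of all genes with the same position in both kinds was not counted, so these lists do not show anything particular to the members. Counts in the span-following libraries followed genomic span, so a difference in transcripts was not tested there. Over all 6 libraries RRM2 overlapped between the feeds, and its log2 fold change was −1.73 (SE 1.31, edgeR adjusted p = 0.987). After TMM scaling over all 6 libraries, KIF11 lay below and E2F1 above every doe-milk library, against 1.08% and 1.89% of all genes. In CPM both genes overlapped between the feeds.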

How the data were processed

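For 6 libraries of total RNA from goat mononuclear cells (TRIzol extraction, NEBNext Ultra II kit, per the labels' protocols), the authors deposited a table of raw counts by gene. Reads had passed through STAR 2.7.10a for alignment and featureCounts 2.0.0 for counting, after fastp 0.22.0, per the submitters' processing notes, which also list bcl2fastq 2.19.0.316, MultiQC 1.12 and FastQC 0.11.9. Settings, strand, genome build and annotation: not given in the sources used here. Overlapping antisense genes therefore cannot be told apart. Columns were matched to samples by their descriptions, and 0 columns belonged to no sample.

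Genomic spans were read from RefSeq's goat gene table (assembly ARS1.2) for 22964 genes. A library was called span-following above a Spearman correlation of 0.6 between count and span. Low genes were removed with filterByExpr, TMM scaling was applied, and the robust quasi-likelihood fit of edgeR 4.0.16 in R 4.3.3 tested replacer minus doe milk (two-sided; p-values adjusted by Benjamini-Hochberg over all genes tested). The SE of a log2 fold change is its size over the root of F. Alternatives were RLE scaling, library totals, other filters, DESeq2 1.42.0, limma voom 3.58.1, dispersions not robust, a replicate block, library kind as a term and each library left out. Each fit was first tested on simulated data with 100 genes planted at each fold. The transcript-like fit recovered 35% of 2-fold and 99% of 4-fold changes. The span-following fit recovered 29% and 97%, and the fit over all 6 libraries 0% of either. Members, lists and the split by kind were chosen with earlier results of these data known. Named in full were the 4 highest and 4 lowest log2 fold changes per group of members, and up to 4 genes with the smallest p of each other list; further genes were picked with their values known. Promoter motifs and levels per coding length were planned and are not analysed here. The labels do not say which animals the libraries came from, so p-values measure the spread between these libraries.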

Additional observations from a re-analysis of the deposited data

How the results depend on the processing

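In the transcript-like libraries the count of members called was 0 under every alternative with a test. It was also 0 over all 6 libraries. Neither count shows stability. The fit over all 6 libraries did not recover changes planted in simulated data. The fit of the transcript-like libraries recovered 35% of the planted 2-fold changes, and it called only a small part of all genes. In the transcript-like libraries the count of all genes called, 3, was 5 with RLE scaling, 90 with no filter on low counts, 0 with at least 1 CPM in every library, 148 with DESeq2, 0 with limma voom and 1 with dispersions not robust. Over all 6 libraries the count of 0 became 1 with DESeq2 and 1 with library kind as a term.

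With library totals only, 3 members lay above both doe-milk libraries in place of 1, against 46.9% of all genes in place of 34.4%. Over all 6 libraries 2 lay below and 0 above, against 1.18% and 2.12% of all genes. In the span-following libraries the medians became −0.42 for S phase and −0.28 for mitotic members, and at least 1 CPM in every library gave 0.087 for the mitotic members. With library totals only, the log2 fold changes near 0 turned positive for MCM4 (0.019), TYMS (0.061), MCM7 (0.089), CCNA2 (0.076) and PLK1 (0.10), as this scaling moves the median of all genes from −0.0057 to 0.105. The cause of the other changes was not tested.

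Without doe-milk library 1 or 2, the medians ran from −0.21 to −0.11 for S phase members and from −0.39 to −0.18 for mitotic members, and the number of negative members was 30 or 21. Without doe-milk library 1, PLK1 was at 0.016, FOXM1 at −0.17, KIF20A at −0.17, TYMS at −0.24, MCM7 at −0.18 and CCNA2 at −0.29. Without doe-milk library 2, PLK1 was at −0.040, FOXM1 at 0.28, KIF20A at 0.51, TYMS at 0.16, MCM7 at 0.15 and CCNA2 at 0.27. RRM2 ran from −0.97 to −0.73. Over all 6 libraries, leaving out a library moved the S phase median from −2.16 (without replacer-milk library 1) to −0.45 (without replacer-milk library 3). In the span-following libraries the mitotic median was 0.063 without replacer-milk library 2 and −0.072 without replacer-milk library 3.

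Whether same-numbered libraries pair could not be told, because these correlations followed the kind of library. The deviations of same-numbered libraries correlated at 0.908, −0.9 and 0.926, negative only where the kinds differed. Differently numbered libraries of the same kind were alike: doe-milk library 2 with replacer-milk library 1 at 0.904, and doe-milk library 3 with replacer-milk library 2 at 0.925. In the transcript-like libraries a block leaves no residual degrees of freedom, and leaving out a doe-milk library gives values with no test. Replacer-milk libraries 2 and 3 summed as 1 library, an alternative chosen after seeing the data, left 23 of 32 members negative over all 6 libraries and moved the medians to −0.43 for S phase and −0.28 for mitotic members, against −0.82 and −0.46. The replicate block over all 6 libraries called 0 genes and 0 members, with medians of −0.90 for S phase and −0.36 for mitotic members. FOXM1, at 58 counts or more per transcript-like library, had an SE of 0.52, and the part of sequencing depth in it was not tested.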

Other observations

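KIF20A stood out among the members in doe-milk library 3, with 863 counts against 86 and 73 in replacer-milk libraries 2 and 3. Per kb of genomic span it lay at 5.45 times the median gene there, and at 0.550 and 0.473 times in the other span-following libraries. It was at 80 to 152 counts in the transcript-like libraries, each of which had a larger total count. BUB1 went the other way, with 1312 and 1260 counts in replacer-milk libraries 2 and 3 against 334 in doe-milk library 3. MCM2 stood at 23.4 and 20.9 CPM in replacer-milk libraries 2 and 3 against 49.3 CPM in doe-milk library 3, and MCM3 at 5.79 and 7.79 CPM against 19.3 CPM, while MCM4 stood at 41.2 and 43.5 CPM against 35.4 CPM. The choice of these genes followed their values.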
